A study of Mus musculus with 12 samples.

Results

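The collagen chains are the mouse genes whose whole symbol reads Col, a number, the letter a and a number. The rule found 44 chains among the 19404 gene symbols of both deposited tables, with 43 in the table of each experiment and 42 in both. Col10a1 was listed only in the KO table and Col6a4 only in the NS-DADm table. Col4a3bp was left out because its symbol runs on past the rule, and it encodes a lipid transfer protein. The study sequenced heart RNA from mice in 2 experiments of 6 libraries each, and each mutant had its own 3 WT libraries. In the first experiment 3 HDAC3 KO hearts, labelled hM in the tables, were set against 3 WT hearts. In the second experiment 3 NS-DADm hearts, in which the labels call HDAC3 inactive, were set against 3 other WT hearts. HDAC3 is a histone deacetylase that works in complexes with the corepressors NCOR1 and SMRT, and NS-DADm mice carry mutations in the domain of those corepressors that activates it. Strain, age and sex of the mice, the driver of the knockout and any treatment are not given in the labels used here. The comparisons address whether loss of the HDAC3 protein and loss of its enzyme activity act alike on the heart.

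Collagens are secreted proteins in which 3 chains wind into a triple helix, and a chain may pair with copies of itself or with chains of other genes. Fibrillar collagens, mainly types I and III in the heart, form the fibres between muscle cells that thicken in fibrosis, and type V chains control how wide these fibres grow. Type IV chains form the sheet of the basement membrane around muscle cells and capillaries, and type VI chains form beaded filaments beside it. FACIT collagens lie on the surface of fibrils, and type VIII chains form networks in vessel walls and valves. By these textbook classes the 44 chains held 11 fibrillar, 9 basement membrane, 6 type VI, 3 network (types VIII and X), 9 FACIT and 4 transmembrane chains, and Col26a1 and Col28a1 were left unclassified.

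Values are FPKM, fragments scaled by transcript length and library size, as the authors deposited them, so levels of different chains can be compared. No read counts were used. The low FPKM values step in a way that places the depth behind them at about 10100000 to 10700000 fragments in the KO libraries, 8700000 to 9000000 in their WT, 12400000 to 13000000 in the NS-DADm libraries and 10400000 to 11300000 in their WT. These depths are estimates, since 65.7 to 75.3% of the low values lay within 0.15 of a whole fragment, against 30% for values without steps at any 1 depth. The submitters state an average of 60000000 reads a sample, and why the estimates are lower was not examined. Hdac3 measured 8.51, 7.31 and 7.88 FPKM in the KO libraries, against 27.83, 29.45 and 27.12 FPKM in WT. It measured 30.57, 28.98 and 29.98 FPKM in NS-DADm, against 32.05, 29.02 and 28.21 FPKM in WT. Its level thus fits the KO label, while it does not check the NS-DADm label, whose mutations lie in other genes. The Y-linked gene Ddx3y measured 21.43, 21.48 and 22.13 FPKM in the KO libraries and was at 0 in their WT, so genotype and sex cannot be told apart in the first experiment. In the second experiment Ddx3y was listed at 0.06 FPKM in 1 WT library and in no other, so both groups were at or near 0. The atrial gene Myl7 measured 446.26, 84.26 and 804.47 FPKM in NS-DADm, against 50.93, 9.77 and 795.5 FPKM in WT, so those hearts differed in atrial RNA. On the estimated fragment counts, pairs of replicates differed with a mean chi-square per gene of 1.2 to 1.49 in the first experiment, near the 1 of pure counting error, and of 3.02 to 10.32 in the second. These values scale with the assumed depth, so a greater true depth would raise them. The labels call the libraries biological replicates but do not say which came from which animal, so a p-value here covers the variation among these libraries, part or all of which may be technical.

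The sequences below are the last 120 bases before the RefSeq transcript start of 4 chains on build GRCm38.p6. Col8a1 and Col3a1 had the largest fitted increases in KO hearts. Col5a1 rose less than its partner chain Col5a2, for which no promoter was at hand. Col15a1 rose in KO and did not pass the test in NS-DADm, and the difference of these effects was called. Each is written 5′ to 3′ on the strand of the gene, at chr16:57754738-57754857 (minus strand) for Col8a1, chr1:45311418-45311537 (plus strand) for Col3a1, chr2:27886305-27886424 (plus strand) for Col5a1 and chr4:47207892-47208011 (plus strand) for Col15a1. Capitals mark TATAAA in Col3a1, and GGGCGG or its reverse complement CCGCCC in Col5a1 and Col8a1.
Col8a1: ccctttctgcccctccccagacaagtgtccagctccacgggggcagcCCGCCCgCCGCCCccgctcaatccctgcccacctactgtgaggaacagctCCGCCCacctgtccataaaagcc
Col3a1: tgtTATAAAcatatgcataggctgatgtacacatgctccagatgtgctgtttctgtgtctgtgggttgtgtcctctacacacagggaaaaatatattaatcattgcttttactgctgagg
Col5a1: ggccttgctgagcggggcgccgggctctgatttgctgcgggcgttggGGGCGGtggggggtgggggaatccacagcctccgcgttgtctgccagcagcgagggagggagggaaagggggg
Col15a1: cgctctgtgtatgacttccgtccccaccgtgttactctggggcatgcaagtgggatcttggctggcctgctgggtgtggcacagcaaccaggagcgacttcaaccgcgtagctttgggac

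RefSeq windows, reaching from 250 bases before to 50 after a start, were at hand for 38 promoters of 35 chains. Searched on both strands, GGGCGG was found in 23 of the 38 collagen windows (60.53%), against 35.66% of all 32851 promoter windows. CCAAT was found in 13 of them (34.21%), against 37.41% of all windows, and TATAAA in 5 (13.16%), against 13.62%. These are descriptions of letters in a window. Several chains lie next to each other in the genome. Col4a1 and Col4a2 start head to head on chromosome 8 with annotated spans that overlap by 22 bases. Col4a3 and Col4a4 do so on chromosome 1 with 71 bases between them, and Col4a5 and Col4a6 on the X chromosome with 1308 bases between them. Col3a1 and Col5a2 end tail to tail on chromosome 1 with 24614 bases between their ends. Annotated exons of genes on the other strand cover at most 6.07% of the exon bases of any chain (Col9a3), and the sources used here do not say whether the quantification used strand.

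In HDAC3 KO hearts nearly all chains that reached 1 FPKM in at least 3 of the 6 libraries were higher than in WT. The largest fitted differences were those of Col8a1, the chains of types I and III and Col5a2. The summed level of all chains was 1156.42, 1125.0 and 1115.01 FPKM in the KO libraries, against 357.84, 375.19 and 362.48 FPKM in WT. The mean sum was 1132 ± 21.6 FPKM in KO and 365 ± 8.98 FPKM in WT (SD, n = 3 each), a ratio of 3.10. As a share of each library's whole FPKM, collagen chains took 0.184 to 0.191% in KO and 0.055 to 0.0579% in WT. Of the 43 chains in the table, 21 reached 1 FPKM in at least 3 of the 6 libraries and were tested with limma on log2(FPKM + 1), on which scale all fitted differences below are given and which understates the change of low genes. Of these 20 rose, none fell and Col4a4 was not called at an adjusted p under 0.05, with Benjamini-Hochberg adjustment over all genes tested. Over all 11810 genes tested, 38.2% were called higher, 27.6% lower and 65.8% in either direction. The median fitted difference was 1.23 over the tested chains and 0.06 over all genes. Col8a2 and Col4a6 entered the test only through their KO level, so their direction was set by the filter. Without these 2 chains 18 rose, with a median fitted difference of 1.12. Col27a1, at 0.82 to 1.04 FPKM in WT, also needed its KO libraries to pass the filter. In the authors' deposited table, 25 of 43 chains were higher and 1 was lower in KO at a q-value under 0.05.

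**Figure D1:**
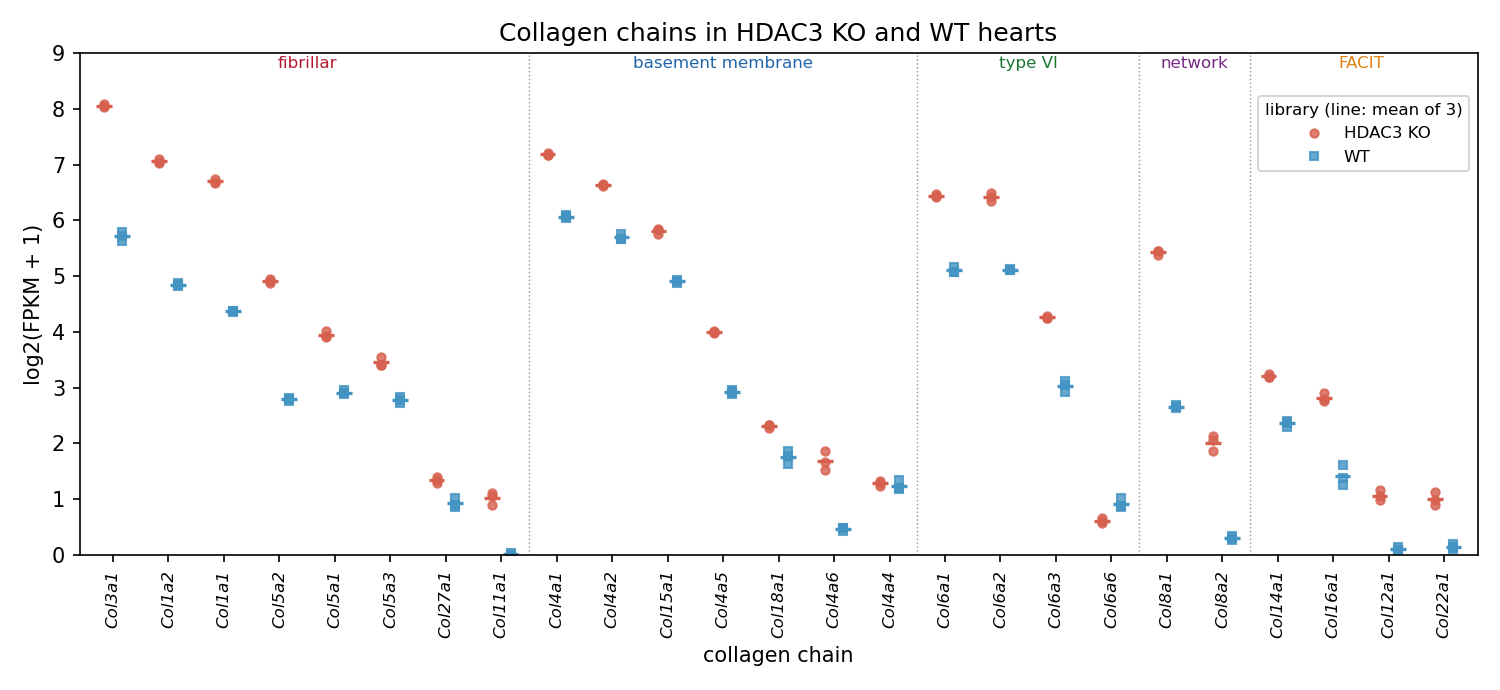
Levels of the 25 chains whose group mean reached 1 FPKM in at least 1 group, in each HDAC3 KO library (circles) and WT library (squares), as log2(FPKM + 1), with the mean of 3 libraries as a line and the chains grouped by class. The KO libraries lie above the WT libraries for every chain shown except Col4a4, where they overlap, and Col6a6, where they lie below.

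Among the fibrillar chains, those of types I and III had the highest levels and the largest differences. Col3a1, the single chain of type III collagen, measured 270.29, 263.45 and 261.3 FPKM in KO, against 48.8, 54.5 and 51.75 FPKM in WT. Col1a2 measured 135.37, 131.82 and 129.62 FPKM in KO, against 27.55, 28.24 and 27.25 FPKM in WT. Col1a1, which joins Col1a2 in type I collagen, measured 106.05, 100.9 and 102.03 FPKM in KO, against 19.59, 19.67 and 19.84 FPKM in WT. For each of the 3 chains the lowest KO library lay far above the highest WT library. Of the 43 chains, 29 had every KO library above every WT library, 20 of them among the tested chains, against 40.2% of all tested genes. These 20 include Col8a2 and Col4a6, which were tested only through KO, so the filter set their direction. No tested chain had every KO library below, against 29.6%. Col3a1 rose by 2.34 (SE 0.0427, limma adjusted p = 1.73e-11), Col1a1 by 2.33 (SE 0.0385, adjusted p = 8.72e-12) and Col1a2 by 2.22 (SE 0.0369, adjusted p = 9.11e-12). The ratios of their group means were 5.13 for Col3a1, 5.23 for Col1a1 and 4.78 for Col1a2.

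Type V chains, which start and limit collagen fibrils, differed among themselves. Col5a2 measured 29.81, 28.24 and 29.07 FPKM in KO, against 5.97, 6.06 and 5.78 FPKM in WT. Col5a1 measured 15.12, 14.11 and 13.97 FPKM in KO, against 6.36, 6.74 and 6.44 FPKM in WT. Col5a3 measured 9.64, 10.78 and 9.64 FPKM in KO, against 5.65, 6.11 and 5.87 FPKM in WT. The 3 chains had nearly the same WT level and Col5a2 alone passed 20 FPKM in KO. Col5a2 rose by 2.11 (SE 0.0515), Col5a1 by 1.03 (SE 0.0582) and Col5a3 by 0.68 (SE 0.0659), with limma adjusted p-values of 1.26e-10, 6.56e-08 and 5.22e-06. Thus Col5a2, which ends next to Col3a1 on chromosome 1, had an increase close in size to those of the types I and III chains.

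The low fibrillar chains varied. Col27a1, a chain known from cartilage, measured 1.53, 1.44 and 1.62 FPKM in KO, against 1.04, 0.85 and 0.82 FPKM in WT, and rose by 0.41 (SE 0.0874, limma adjusted p = 0.00174). Col11a1, a chain close to type V, measured 0.86, 1.16 and 1.07 FPKM in KO and was at 0, 0 and 0.02 FPKM in WT. It stayed under the filter and was not tested, and its groups did not overlap. Col11a2 measured 0.18 to 0.33 FPKM in KO and 0.26 to 0.45 FPKM in WT, and Col2a1 and Col24a1 did not pass 0.02 FPKM in either group.

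The makeup of the collagen RNA differed between the genotypes. Summed fibrillar chains reached 557 ± 10.9 FPKM in KO and 119 ± 3.71 FPKM in WT (SD, n = 3 each), a ratio of 4.69. Fibrillar chains made up 49.2, 49.1 and 49.2% of the collagen FPKM in the KO libraries, against 32.2, 32.7 and 32.6% in WT. Basement membrane chains made up 28.1, 28.5 and 28.5% in KO, against 43.1, 42.9 and 43.1% in WT, although their sum was also higher, at 321 ± 3.997 FPKM in KO and 157 ± 3.49 FPKM in WT, a ratio of 2.05. The shares of neither class overlapped between the groups. Type VI chains summed to 189 ± 5.59 FPKM in KO and 75.1 ± 1.48 FPKM in WT, a ratio of 2.52. Network chains summed to 45.3 ± 1.22 FPKM in KO and 5.57 ± 0.157 FPKM in WT, a ratio of 8.14, which is nearly all Col8a1. FACIT chains summed to 17.7 ± 0.479 FPKM in KO and 7.13 ± 0.501 FPKM in WT, a ratio of 2.48. Col3a1 alone held 23.4% of the collagen FPKM in KO hearts and 14.1% in WT hearts, where Col4a1 led with 18.1%, against 12.8% in KO.

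**Figure D2:**
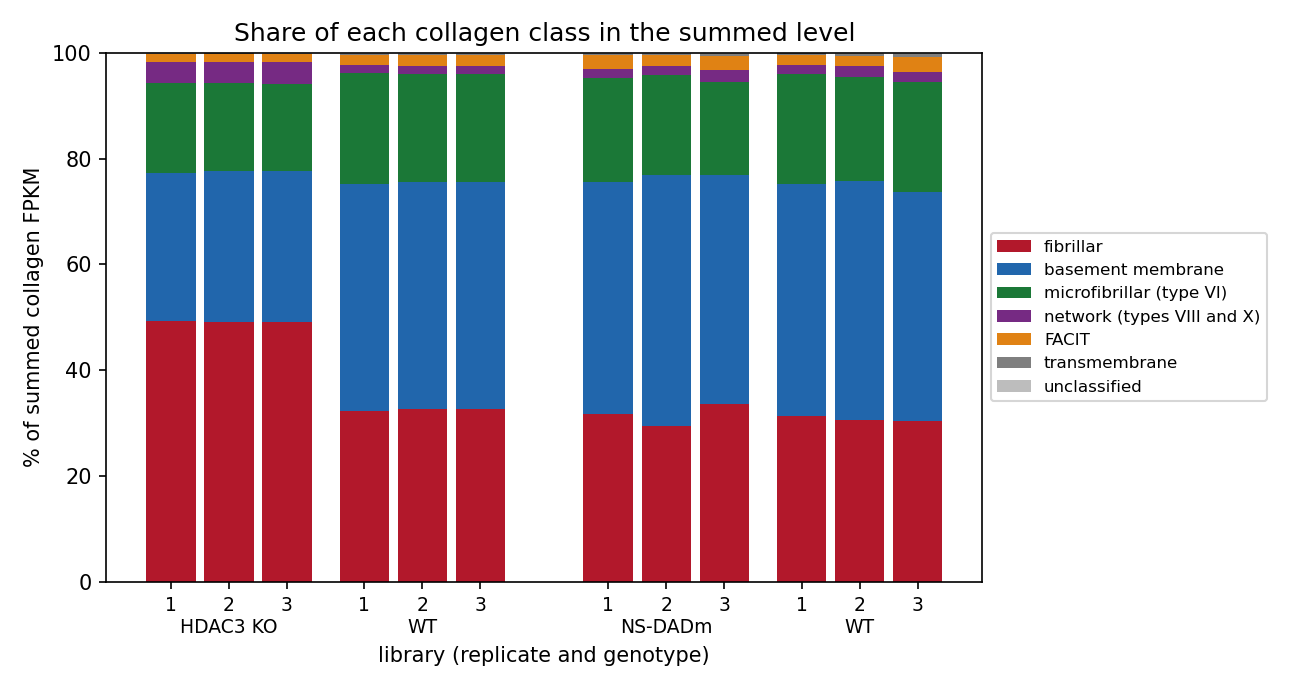
Share of each collagen class in the summed collagen FPKM of each library, as stacked bars from 0 to 100%, with the 6 libraries of the KO experiment at the left and the 6 of the NS-DADm experiment at the right. Fibrillar chains hold 49.1 to 49.2% in HDAC3 KO and 32.2 to 32.7% in its WT, and 29.5 to 33.5% in NS-DADm and 30.3 to 31.4% in its WT.

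Chains of 1 trimer were compared as ratios within each library, which do not move with the library total. Col5a1/Col5a2 was 0.5072, 0.4996 and 0.4806 in the KO libraries, against 1.07, 1.11 and 1.11 in WT. Col4a1/Col4a2 averaged 1.47 ± 0.0213 in KO and 1.30 ± 0.0352 in WT (SD, n = 3 each). Col1a1/Col1a2 averaged 0.779 ± 0.0116 in KO and 0.712 ± 0.0158 in WT. For these 3 ratios the groups did not overlap, and the exact two-sided permutation test gave p = 0.1, the smallest that 3 against 3 allows, or 0.16 after adjustment over the 8 ratio tests. Col6a1/Col6a2 averaged 1.01 ± 0.0317 in KO and 0.991 ± 0.0476 in WT with overlapping groups (exact permutation p = 0.6, adjusted 0.686). Both genes lie in the same direction on chromosome 10, and their levels stayed near 1 to 1 in KO and in WT.

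**Figure D3:**
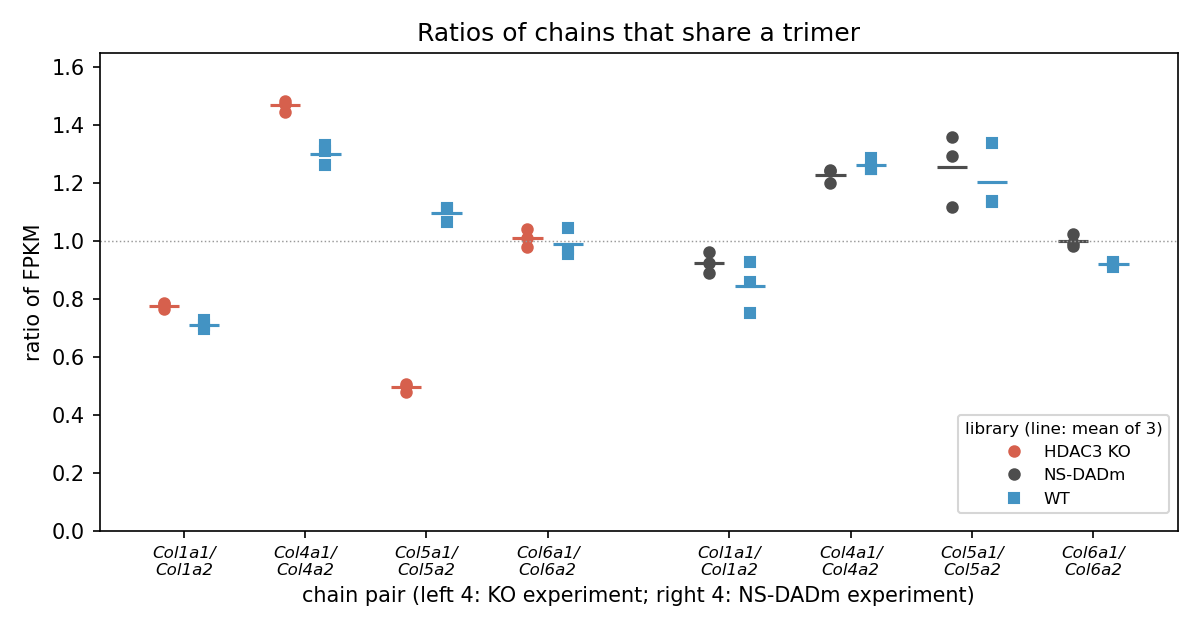
Ratio of the FPKM of 2 chains that share a trimer in each library, with the mean of 3 as a line, for the KO experiment (left 4 pairs) and the NS-DADm experiment (right 4 pairs). Only Col5a1/Col5a2 in HDAC3 KO, at 0.4806 to 0.5072, lies near 0.5, against 1.07 to 1.11 in its WT.

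Of the 7 basement membrane chains tested, 6 rose in KO, with a median fitted difference of 0.94 over the 7, against 2.11 over the 7 fibrillar chains. Col4a6, 1 of the 6, was tested only through KO, so the filter set its direction. Col4a1 measured 146.95, 142.65 and 143.86 FPKM in KO, against 64.99, 67.15 and 66.0 FPKM in WT. Col4a2, its partner in the main type IV trimer, measured 98.89, 98.72 and 97.49 FPKM in KO, against 49.58, 53.13 and 49.52 FPKM in WT. These neighbours rose by 1.12 (SE 0.0334, limma adjusted p = 5.36e-10) and 0.94 (SE 0.0391, adjusted p = 6.11e-09), with no overlap between groups. Col15a1, a chain at the outer face of basement membranes, measured 55.67, 56.31 and 53.08 FPKM in KO, against 28.48, 29.33 and 29.1 FPKM in WT, and rose by 0.90 (SE 0.0410, adjusted p = 1.23e-08). Col18a1, the source of the fragment endostatin, measured 4.01, 4.01 and 3.82 FPKM in KO, against 2.44, 2.08 and 2.64 FPKM in WT, and rose by 0.55 (SE 0.0819, adjusted p = 0.000146).

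The minor type IV chains, which form tissue-specific basement membranes, did not move alike. Col4a5 measured 14.98, 15.13 and 14.68 FPKM in KO, against 6.43, 6.76 and 6.54 FPKM in WT, and rose by 1.07 (SE 0.0540, limma adjusted p = 2.77e-08). Its neighbour Col4a6 measured 2.66, 1.89 and 2.17 FPKM in KO, against 0.34, 0.4 and 0.39 FPKM in WT, with a fitted difference of 1.23 (SE 0.102, adjusted p = 1.46e-06). Col4a4 measured 1.5, 1.36 and 1.44 FPKM in KO, against 1.28, 1.53 and 1.3 FPKM in WT. Its groups overlapped and its difference of 0.04 had a 95% interval from -0.15 to 0.23 (adjusted p = 0.700). Col4a3, its neighbour, stayed under the filter at 0.75, 0.76 and 0.87 FPKM in KO, against 0.54, 0.47 and 0.58 FPKM in WT, with groups that did not overlap. Col7a1, the anchoring fibril chain of skin, measured 0.09 to 0.15 FPKM in KO and 0.04 to 0.06 FPKM in WT.

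The 3 abundant type VI chains rose by similar amounts. Col6a1 measured 87.39, 85.34 and 84.25 FPKM in KO, against 32.71, 34.89 and 32.52 FPKM in WT. Col6a2 measured 89.23, 84.27 and 80.8 FPKM in KO, against 33.64, 33.38 and 34.03 FPKM in WT. Col6a3 measured 18.01, 17.98 and 18.53 FPKM in KO, against 7.24, 7.71 and 6.62 FPKM in WT. No groups overlapped, and the fitted differences were 1.34 (SE 0.0411) for Col6a1, 1.31 (SE 0.0435) for Col6a2 and 1.23 (SE 0.0619) for Col6a3, all with limma adjusted p-values of 2.78e-08 or less. Col6a6, a chain that can stand in for Col6a3, was the one chain above 0.5 FPKM whose KO libraries lay below all WT libraries, at 0.53, 0.59 and 0.48 FPKM in KO, against 1.02, 0.83 and 0.82 FPKM in WT. It stayed under the filter of the main test, and without a filter it was called lower, with a fitted difference of -0.30 (SE 0.0752, adjusted p = 0.0102). Col6a5 did not pass 0.08 FPKM in KO or 0.01 FPKM in WT.

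Col8a1 had the largest fitted difference of all chains. It measured 42.96, 40.83 and 42.89 FPKM in KO, against 5.43, 5.26 and 5.22 FPKM in WT, a ratio of means of 7.96, and rose by 2.78 (SE 0.0498, limma adjusted p = 1.55e-11). Col8a2, its partner in type VIII collagen, measured 3.37, 3.17 and 2.62 FPKM in KO, against 0.27, 0.24 and 0.21 FPKM in WT, which is about 136 and 9 fragments a library at the estimated depth. Its fitted difference was 1.70 (SE 0.0947, adjusted p = 5.96e-08). Col10a1, the growth plate chain of the same class, did not pass 0.07 FPKM in KO or 0.04 FPKM in WT.

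Of the FACIT chains, Col14a1 and Col16a1 were tested and both rose. Col14a1 measured 8.49, 8.14 and 8.16 FPKM in KO, against 3.93, 4.18 and 4.31 FPKM in WT, and rose by 0.85 (SE 0.0634, limma adjusted p = 6.21e-07). Col16a1 measured 5.96, 6.46 and 5.77 FPKM in KO, against 1.4, 2.07 and 1.59 FPKM in WT, and rose by 1.401 (SE 0.0972, adjusted p = 3.49e-07). Col12a1, a chain of tendon and of tissue under load, measured 1.23, 1.07 and 0.97 FPKM in KO, against 0.11, 0.07 and 0.07 FPKM in WT. Col22a1, a chain of muscle and tendon junctions, measured 1.2, 0.86 and 0.97 FPKM in KO, against 0.1, 0.08 and 0.14 FPKM in WT. Neither passed the filter of the main test, and neither pair of groups overlapped. Without a filter Col12a1 was called higher with a fitted difference of 0.95 (adjusted p = 7.78e-06), Col22a1 with 0.86 (adjusted p = 2.97e-05) and Col11a1 with 1.01 (adjusted p = 6.31e-06).

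In all, 22 chains were not tested in the KO experiment. Of these 9 had every KO library above every WT library, namely Col11a1, Col12a1, Col22a1, Col26a1, Col28a1, Col4a3, Col6a5, Col7a1 and Col9a2, and 2 had every KO library below, Col13a1 and Col6a6. Among all 5233 genes under the filter, 15.6% had groups apart with KO higher and 9.4% with KO lower. Col13a1, a transmembrane chain, measured 0.22, 0.32 and 0.2 FPKM in KO, against 0.43, 0.35 and 0.35 FPKM in WT. Col26a1 measured 0.78, 0.43 and 0.85 FPKM in KO, against 0.31, 0.41 and 0.26 FPKM in WT, and Col28a1 0.63, 0.38 and 0.41 FPKM in KO, against 0.08, 0.14 and 0.18 FPKM in WT. The other chains under 1 FPKM in every group were Col11a2, Col17a1, Col19a1, Col20a1, Col23a1, Col24a1, Col25a1, Col2a1, Col9a1, Col9a3 and Col10a1 in the KO table, and Col6a4 in the NS-DADm table. The highest group mean among the 19 chains of this kind was 0.917 FPKM, for Col20a1 in KO. The transmembrane chains Col17a1, Col23a1 and Col25a1 and the cartilage chains Col9a1 and Col2a1 had overlapping groups.

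Collagens are made mostly by fibroblasts, and bulk RNA cannot tell more cells of a type from more RNA per cell. The counts of called markers in KO stand beside 38.2% called higher and 27.6% called lower over all genes tested. Quiescent fibroblast markers summed to 2016 to 2041 FPKM in KO and 1575 to 1613 FPKM in WT, and of 11 tested 5 rose and 4 fell. Myofibroblast markers summed to 712 to 727 FPKM in KO and 120 to 126 FPKM in WT, and 10 of 10 rose, 2 of them tested only through KO. Macrophage markers summed to 1853 to 1897 FPKM in KO and 309 to 337 FPKM in WT, and 11 of 11 rose. Ventricular cardiomyocyte markers summed to 46696 to 47342 FPKM in KO and 68578 to 72515 FPKM in WT, and of 10 tested 2 rose and 7 fell. Endothelial markers summed to 321 to 333 FPKM in KO and 343 to 355 FPKM in WT, with 2 of 11 called higher and 7 lower, and pericyte markers to 180 to 185 FPKM in KO and 236 to 244 FPKM in WT, with 3 of 7 higher and 2 lower. Cthrc1, a myofibroblast gene, was at 0 in 2 WT libraries, Lamc3 of the quiescent list in 1, and no marker of the macrophage, ventricular, endothelial or pericyte lists was at 0 anywhere. Atrial markers summed to 1960 to 2017 FPKM in KO and 155 to 164 FPKM in WT, with 5 of 6 called higher and 1 lower, and Nppa held most of both sums. Bmp10 of this list was at 0 in every WT library and in KO replicates 2 and 3. Erythroid markers summed to 2693 to 2830 FPKM in KO and 7976 to 9302 FPKM in WT, and 5 of 5 fell. Valve and cartilage markers summed to 28.7 to 33.5 FPKM in KO and 18.0 to 21.8 FPKM in WT, with 2 of 3 tested called higher. Cytl1, tested and not called, measured 8.42, 14.52 and 10.96 FPKM in KO, against 16.06, 12.77 and 15.71 FPKM in WT. Its fitted difference was -0.39 (limma adjusted p = 0.0540). Prg4, a joint lubricant, measured 15.89, 15.05 and 14.66 FPKM in KO, against 4.71, 4.36 and 4.28 FPKM in WT. Tnmd, a tendon gene, measured 2.84, 2.75 and 3.13 FPKM in KO and was at 0 in WT, so it was tested only through KO. The defining cartilage genes Acan and Matn1 were at 0 in all 3 WT libraries and in 2 KO libraries. The part of these shifts in the collagen differences was not tested.

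In NS-DADm hearts no chain passed the test, and the shares of the fibrillar and basement membrane classes overlapped those of WT. Type VI chains held 17.6 to 19.7% of the collagen FPKM in NS-DADm and 19.8 to 20.8% in WT, without overlap. Shares of some chains also lay apart, as for Col15a1, at 5.3 to 5.8% in NS-DADm and 7.3 to 8.0% in WT. The share of Col4a1 was 19.0 to 21.5% in NS-DADm and 17.6 to 18.8% in WT, and that of Col4a2 15.3 to 17.2% and 14.1 to 15.1%. All chains summed to 375.51, 356.53 and 359.93 FPKM in NS-DADm, against 375.9, 319.9 and 305.47 FPKM in WT, with overlapping groups. The means were 364 ± 10.1 FPKM in NS-DADm and 334 ± 37.2 FPKM in WT (SD, n = 3 each), a ratio of 1.09. By class the ratios were 1.12 for fibrillar chains, 1.11 for basement membrane chains, 1.00 for type VI, 1.06 for network and 1.28 for FACIT chains, whose level was 9.20 ± 1.31 FPKM in NS-DADm and 7.20 ± 1.35 FPKM in WT. Among the 43 chains listed, 19 were tested, and 0 were called by limma at an adjusted p under 0.05, while 6 had an unadjusted p under 0.05. Over all 11704 genes tested, 1.26% were called higher, 1.43% lower and 2.69% in either direction. In the authors' deposited table, Col4a2 was the 1 of 43 chains with a q-value under 0.05 in NS-DADm, with a fold of 1.22 and a q-value of 0.0470. The median fitted difference was 0.11 over the tested chains and -0.02 over all genes.

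**Figure D4:**
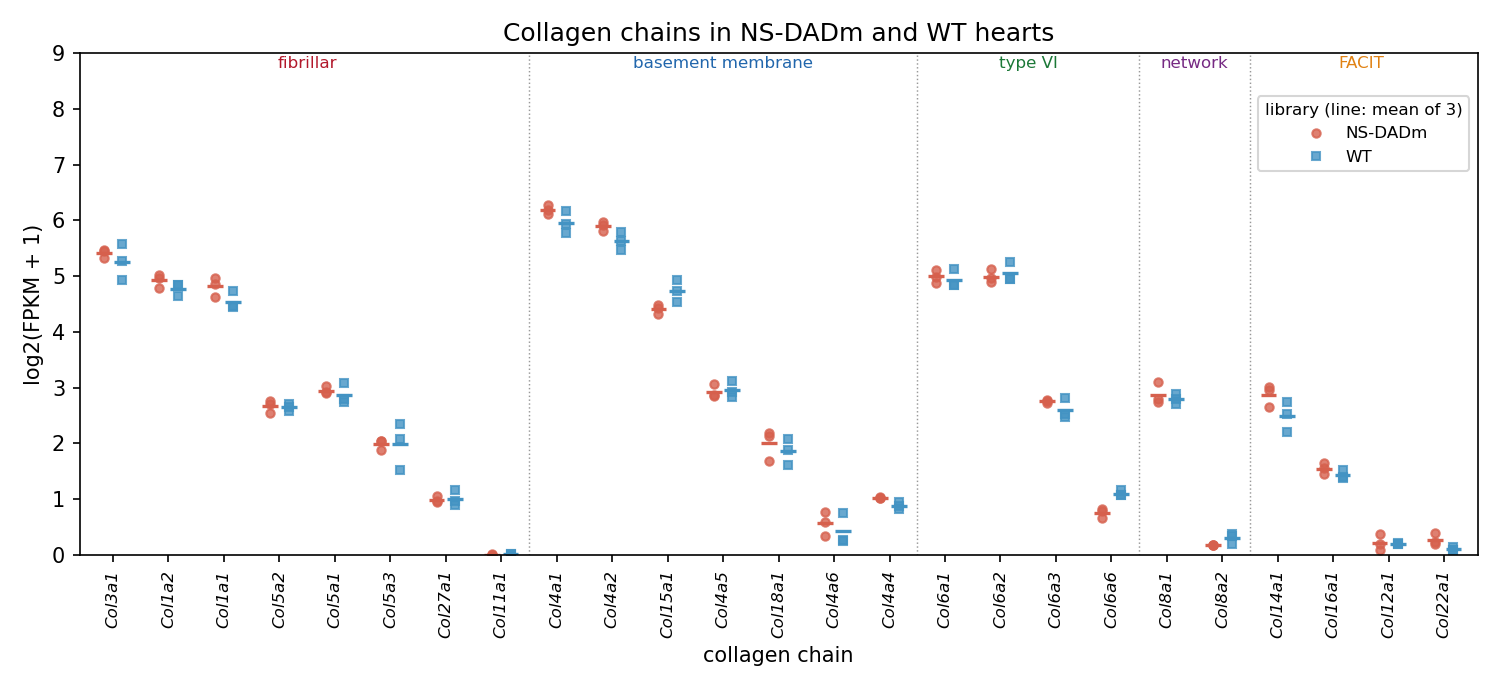
Levels of the same 25 chains in each NS-DADm library (circles) and its WT library (squares), as log2(FPKM + 1), with the mean of 3 libraries as a line and unlisted values at 0. The groups overlap for most chains, with NS-DADm below WT for Col15a1, Col6a6 and Col8a2 and above it for Col4a2, Col4a4 and Col22a1.

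The fibrillar chains of NS-DADm hearts lay within or close to the range of WT. Col3a1 measured 43.12, 38.93 and 42.51 FPKM in NS-DADm, against 46.4, 37.61 and 29.37 FPKM in WT (fitted difference 0.15, 95% interval -0.19 to 0.50, limma adjusted p = 0.631). Col1a1 measured 28.18, 23.81 and 30.36 FPKM in NS-DADm, against 25.54, 20.66 and 20.97 FPKM in WT (0.28, interval 0.04 to 0.52, adjusted p = 0.201). Col1a2 measured 30.42, 26.72 and 31.5 FPKM in NS-DADm, against 27.48, 24.03 and 27.82 FPKM in WT (0.15, adjusted p = 0.361). The intervals of Col3a1 and Col1a1 end at 0.50 and 0.52, while the KO differences of the same chains were above 2. Col5a2 measured 5.51, 4.82 and 5.79 FPKM in NS-DADm, against 5.55, 5.26 and 5.02 FPKM in WT, with an interval from -0.18 to 0.22. Col5a1 averaged 6.72 ± 0.364 FPKM in NS-DADm and 6.38 ± 0.927 FPKM in WT. Col5a3 averaged 2.98 ± 0.257 FPKM in NS-DADm and 3.06 ± 1.12 FPKM in WT. Col27a1 averaged 0.993 ± 0.0850 FPKM in NS-DADm and 1.02 ± 0.187 FPKM in WT and was not tested, and Col11a1 did not pass 0.01 FPKM in either group.

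Of the 4 tested chains whose groups lay apart, 3 were basement membrane chains, Col4a2 and Col4a4 with NS-DADm higher and Col15a1 with NS-DADm lower. Among all genes tested, 9.18% had groups apart with NS-DADm higher and 15.0% with NS-DADm lower. Col4a2 measured 59.63, 61.48 and 55.06 FPKM in NS-DADm, against 54.69, 48.27 and 43.11 FPKM in WT, with a fitted difference of 0.27 (SE 0.0878, limma adjusted p = 0.145). Col4a1 measured 71.7, 76.56 and 68.42 FPKM in NS-DADm, against 70.48, 60.27 and 53.9 FPKM in WT, with 0.23 (SE 0.0944, adjusted p = 0.229). Col15a1 measured 21.32, 20.59 and 19.1 FPKM in NS-DADm, against 29.51, 25.5 and 22.24 FPKM in WT, with -0.32 (SE 0.0981, adjusted p = 0.129). Col15a1 was lower in 3 of 3 NS-DADm libraries than in any WT library, while Col4a1 overlapped by 1 library and Col4a2 did not. Col4a4 measured 1.06, 1.03 and 1.03 FPKM in NS-DADm, against 0.77, 0.84 and 0.94 FPKM in WT, with 0.14 (adjusted p = 0.526), and it entered the test only through NS-DADm. Col4a5 averaged 6.64 ± 0.608 FPKM in NS-DADm and 6.80 ± 0.796 FPKM in WT. Col18a1 averaged 3.05 ± 0.723 FPKM in NS-DADm and 2.65 ± 0.570 FPKM in WT, and Col4a6, not tested, 0.493 ± 0.216 FPKM in NS-DADm and 0.360 ± 0.277 FPKM in WT.

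Among the other classes Col6a6 measured 0.77, 0.72 and 0.59 FPKM in NS-DADm, against 1.24, 1.1 and 1.1 FPKM in WT, so its groups did not overlap, as in the KO experiment. Its fitted difference was -0.34 (SE 0.112, limma adjusted p = 0.146), and it entered the test only through WT. Col14a1 measured 6.73, 5.32 and 7.06 FPKM in NS-DADm, against 4.8, 3.6 and 5.73 FPKM in WT, with 0.38 (SE 0.148, adjusted p = 0.217) and overlapping groups. Col8a1 measured 5.93, 5.67 and 7.54 FPKM in NS-DADm, against 5.91, 6.36 and 5.54 FPKM in WT, with 0.08 (interval -0.16 to 0.32, adjusted p = 0.731). The type VI chains averaged 30.9 ± 2.45 FPKM for Col6a1, 30.9 ± 2.72 FPKM for Col6a2 and 5.76 ± 0.130 FPKM for Col6a3 in NS-DADm. The same chains averaged 29.7 ± 3.59, 32.3 ± 4.24 and 5.10 ± 0.774 FPKM in WT. Col16a1 averaged 1.93 ± 0.205 FPKM in NS-DADm and 1.71 ± 0.151 FPKM in WT, and Col12a1, not tested, 0.170 ± 0.111 FPKM in NS-DADm and 0.147 ± 0.0115 FPKM in WT.

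Of all tested chains of the NS-DADm experiment, 2 had groups apart with NS-DADm higher (Col4a2 and Col4a4) and 2 with NS-DADm lower (Col15a1 and Col6a6). Col4a4 entered the test only through NS-DADm and Col6a6 only through WT, so the filter set their direction. Over all tested genes 9.18% lay apart with NS-DADm higher and 15.0% with NS-DADm lower. Of the 24 chains not tested, Col22a1 lay apart and higher, at 0.31, 0.15 and 0.17 FPKM in NS-DADm, against 0.06, 0.1 and 0.07 FPKM in WT. Col8a2, at 0.13, 0.13 and 0.13 FPKM in NS-DADm, against 0.26, 0.14 and 0.29 FPKM in WT, and Col6a5, which did not pass 0.04 FPKM, lay apart and lower. Among genes under the filter 4.23% lay apart with NS-DADm higher and 5.03% with NS-DADm lower. The ratio Col6a1/Col6a2 averaged 1.00 ± 0.0201 in NS-DADm and 0.921 ± 0.00920 in WT without overlap (exact permutation p = 0.1, adjusted 0.16). Col4a1/Col4a2 averaged 1.23 ± 0.0240 in NS-DADm and 1.26 ± 0.0227 in WT (exact permutation p = 0.1, adjusted 0.16), and Col5a1/Col5a2 1.26 ± 0.126 in NS-DADm and 1.21 ± 0.117 in WT (exact permutation p = 0.9). Col1a1/Col1a2 averaged 0.927 ± 0.0364 in NS-DADm and 0.848 ± 0.0884 in WT (exact permutation p = 0.3, adjusted 0.4).

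Atrial markers summed to 3846.61, 597.08 and 6679.81 FPKM in NS-DADm, against 558.23, 291.95 and 4776.79 FPKM in WT, so the spread within each group was wide and 0 of 7 were called. With the mean atrial marker level of each library as a covariate, a choice made after seeing the data, the count of called chains was again 0. Adipocyte markers summed to 45.98, 7.28 and 230.37 FPKM in NS-DADm, against 10.16, 3.98 and 74.18 FPKM in WT. Epicardial markers summed to 5.29, 3.42 and 17.26 FPKM in NS-DADm, against 4.0, 1.75 and 4.3 FPKM in WT. In WT replicate 2, Plin1 of the adipocyte list and Upk3b, Upk1b, Msln and Krt19 of the epicardial list were at 0. No tested gene of either list was called, and their part in the collagen values was not tested. Macrophage markers summed to 375 to 432 FPKM in NS-DADm and 289 to 324 FPKM in WT, with 5 of 10 called higher. Over all genes tested in NS-DADm 1.26% were called higher and 1.43% lower. Myofibroblast markers summed to 88.7 to 121 FPKM in NS-DADm and 76.3 to 102 FPKM in WT, and quiescent fibroblast markers to 1105 to 1429 FPKM in NS-DADm and 1189 to 1479 FPKM in WT, with none called in either list. Cthrc1 of the myofibroblast list was at 0 in 1 NS-DADm library. Bmp10 of the atrial list was at 0 in NS-DADm replicate 2 and in WT replicates 1 and 2.

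The difference between the KO effect and the NS-DADm effect was tested in 1 limma fit over the 12 libraries, as KO over WT minus NS-DADm over WT. Among the 42 chains listed in both, 22 were tested, and 19 were called with a larger KO effect, 0 with a larger NS-DADm effect and 3 were not called. Col8a2 and Col4a6 are among the 19 and passed the filter only through the KO libraries, so the filter set their direction, and 17 are left without them. Over all 11662 genes tested, 28.2% were called higher, 17.7% lower and 45.9% in either direction. Col8a1 had a difference of 2.70 (SE 0.119, adjusted p = 8.65e-10), Col3a1 of 2.18 (SE 0.165), Col5a2 of 2.10 (SE 0.0960), Col1a2 of 2.06 (SE 0.0928) and Col1a1 of 2.05 (SE 0.120). The 7 fibrillar chains had a median difference of 2.05 and the 7 basement membrane chains one of 0.88, with 5 of the 7 called. Col15a1 had a difference of 1.22 (SE 0.111, adjusted p = 9.84e-07), built from 0.90 in KO and -0.32 in NS-DADm. The chains not called were Col18a1, with 0.40 (interval -0.01 to 0.81, adjusted p = 0.0989), Col6a6, with 0.04 (interval -0.23 to 0.31), and Col4a4, with -0.10 (interval -0.36 to 0.15). Col6a6 was thus the one chain near 1 FPKM whose libraries lay below WT in both mutants, and its 2 effects did not differ beyond their error. Ddx3y was at 21.43 to 22.13 FPKM in the KO libraries and at no more than 0.06 FPKM in the other 3 groups, so sex and genotype cannot be told apart in the difference either.

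**Figure D5:**
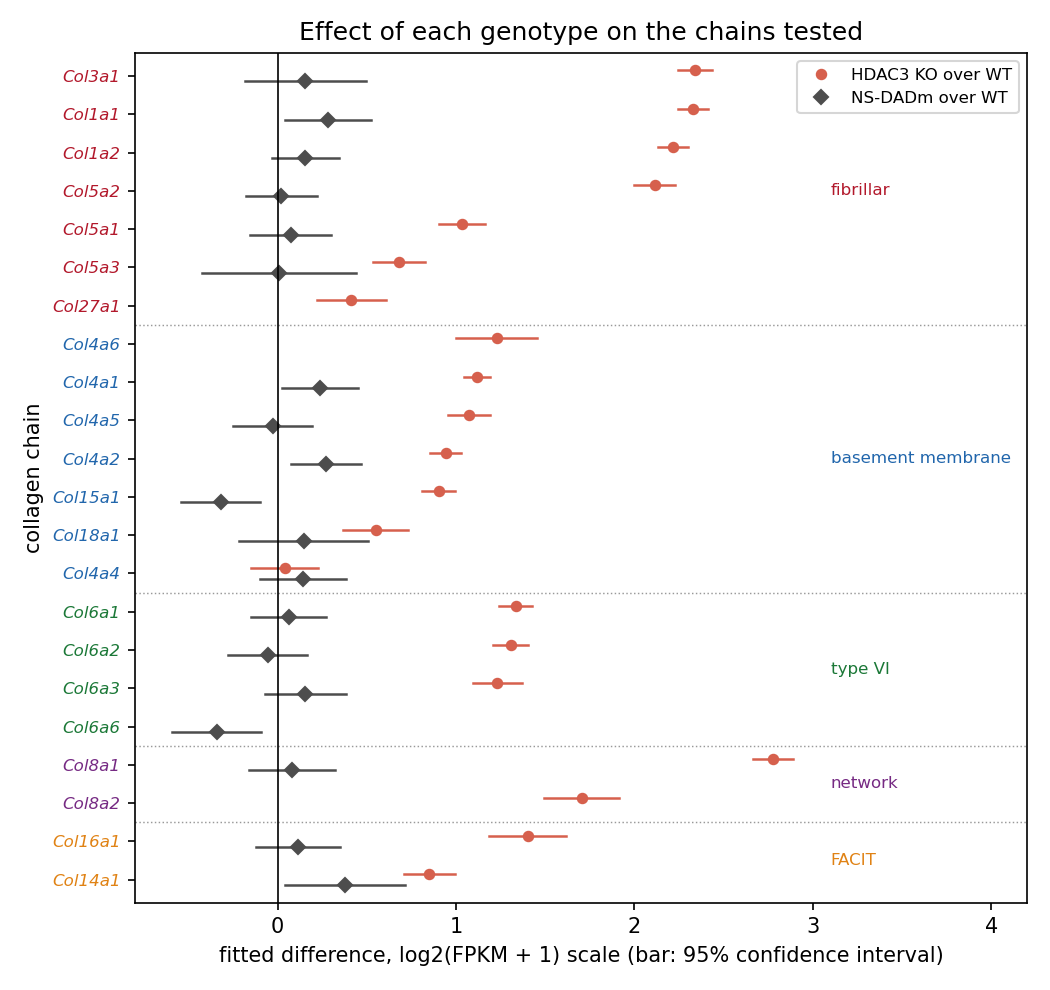
Fitted difference of each tested chain on the log2(FPKM + 1) scale for HDAC3 KO over WT (circles) and NS-DADm over WT (diamonds), with 95% confidence intervals and chains ordered by class. All KO intervals except that of Col4a4 lie above 0, and the NS-DADm points lie between -0.34 and 0.38.

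The genes that build and turn over collagen were read from lists of the pathway, in the same fits. Of the folding and modification genes, 21 were tested in KO, of which 11 rose and 4 fell, with a median of 0.19. For all the lists the shares over all genes tested were 38.2% higher and 27.6% lower in KO, with a median of 0.06, and 1.26% higher and 1.43% lower in NS-DADm. P4hb, the shared subunit of the prolyl hydroxylases, measured 215.82, 219.38 and 214.37 FPKM in KO, against 105.34, 105.5 and 101.78 FPKM in WT, and rose by 1.05. P3h2, which modifies type IV chains, rose by 1.01 and Serpinh1, the collagen chaperone HSP47, by 0.76. P3h4 fell by 0.56 and P4ha2, a catalytic prolyl hydroxylase subunit, fell by 0.44. In NS-DADm 1 of 21 rose and 1 fell. P4hb measured 120.91, 118.53 and 120.48 FPKM in NS-DADm, against 99.46, 96.58 and 101.65 FPKM in WT, and rose by 0.27 (limma adjusted p = 0.0327). Fkbp10, a collagen chaperone, measured 13.18, 12.8 and 13.69 FPKM in NS-DADm, against 18.25, 16.3 and 20.44 FPKM in WT, and fell by 0.44 (adjusted p = 0.0327). In KO Fkbp10 also fell, by 0.40. The difference of the effects was called higher for 8 and lower for 1 of 21, against 28.2% and 17.7% of all genes tested.

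Of the processing, crosslinking and fibril assembly genes, 20 were tested in KO, of which 16 rose and 2 fell, with a median of 0.86. Fmod, a proteoglycan that binds fibrils, measured 10.54, 10.7 and 9.62 FPKM in KO, against 0.74, 0.58 and 0.61 FPKM in WT. Lox, the crosslinking enzyme lysyl oxidase, measured 8.7, 8.36 and 8.61 FPKM in KO, against 0.7, 0.81 and 0.67 FPKM in WT. Their fitted differences were 2.78 and 2.47, and with Loxl4 they were tested only through KO. Thbs2 fell by 0.40 and Prelp, a proteoglycan of the extracellular matrix, fell by 0.26. In NS-DADm 0 of 20 were called by limma, while 7 had an unadjusted p under 0.05. The difference of the effects was called higher for 15 and lower for 2 of 21, against 28.2% and 17.7% of all genes tested. In that fit Loxl4 was tested only through KO. Dcn, Lum and Dpt of this list also stand among the quiescent fibroblast markers and Comp among the myofibroblast markers. Loxl2 is counted again among the basement membrane partners below. Fap is counted both among the breakdown and uptake genes and among the myofibroblast markers.

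Of the breakdown and uptake genes, 9 of 10 were called higher in KO, with Mmp13 tested only through KO, and 1 fell, with a median of 0.94. Ctsk, the collagen-cutting cathepsin K, measured 19.94, 22.24 and 20.76 FPKM in KO, against 3.36, 3.07 and 2.85 FPKM in WT. Mmp2, a gelatinase, measured 103.7, 104.0 and 100.78 FPKM in KO, against 30.85, 33.92 and 32.92 FPKM in WT, and rose by 1.63. Mmp15, a membrane-bound metalloproteinase, measured 18.65, 18.47 and 17.98 FPKM in KO, against 26.74, 30.66 and 27.9 FPKM in WT, and fell by 0.60. In NS-DADm 2 of 10 rose. Mmp9, the other gelatinase, measured 3.39, 3.26 and 3.05 FPKM in NS-DADm, against 0.63, 0.22 and 0.26 FPKM in WT, with a fitted difference of 1.64 (limma adjusted p = 0.000485), and it was tested only through NS-DADm. Mmp9 was at 0.33, 0.55 and 0.25 FPKM in KO, against 0.48, 0.52 and 0.33 FPKM in its WT, and the difference of the effects was -1.71 and called lower. In that fit too Mmp9 passed the filter only through the NS-DADm libraries, so the filter set the direction. Ctsl, a lysosomal cathepsin, measured 57.0, 53.36 and 59.07 FPKM in NS-DADm, against 38.85, 40.42 and 41.87 FPKM in WT, and rose by 0.47 (adjusted p = 0.00630).

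Of the 8 collagen receptors tested in KO, 4 were called higher and 1 lower, against 38.2% and 27.6% of all genes tested. Lair1, an inhibitory collagen receptor of immune cells, measured 6.76, 5.73 and 6.11 FPKM in KO, against 0.87, 0.93 and 0.98 FPKM in WT. Its fitted difference was 1.90, and it was tested only through KO. Cd44, which binds hyaluronan and collagen, rose by 1.67, and Adgrg1, the receptor of type III collagen also called GPR56, fell by 0.64. In NS-DADm 1 of 8 was called, Lair1, at 1.57, 1.32 and 1.86 FPKM in NS-DADm, against 0.7, 0.55 and 0.72 FPKM in WT, with 0.64 (limma adjusted p = 0.0302), again tested only through the mutant. Of the 12 basement membrane partners tested in KO, 6 rose and 4 fell, against 38.2% and 27.6% of all genes tested. Loxl2 rose by 0.84 and Nid2, which links laminin to type IV collagen, by 0.80, while the laminin chain Lama5 fell by 0.50 and the proteoglycan Agrn fell by 0.43. In NS-DADm 1 of 12 was called. Pxdn, the peroxidase that crosslinks type IV collagen, measured 9.3, 9.36 and 9.4 FPKM in NS-DADm, against 13.51, 12.95 and 11.97 FPKM in WT, and fell by 0.41 (adjusted p = 0.0184). In KO Pxdn fell by 0.36.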

How the data were processed

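Heart RNA of 12 libraries was read from 2 deposited tables, 1 per experiment. FPKM values were deposited by the authors. Per the submitters' processing notes, HISAT2 2.0.4, Bowtie2 2.2.5, RSEM 1.2.12 and DESeq2 1.4.5 were used on GRCm38.p6, and reads were filtered with SOAPnuke 1.5.2 per the labels' protocols, which state an average of 60000000 reads a sample. The authors' deposited signed fold, a score that is negative for lower genes, and their q-value columns served only for the sentences that name them. In each NS-DADm or paired WT library 1654 to 2212 genes were unlisted and were taken as 0. Left out were 3 per-sample columns that match no sample, 24 symbols turned into dates in each table, 7 numeric and 2 repeated symbols in the KO table, and 1 row without a name in the NS-DADm table.

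Genes with at least 1 FPKM in 3 or more libraries were fitted with limma 3.58.1 (R 4.3.3, trend and robust variances) on log2(FPKM + 1), adjusted by Benjamini-Hochberg over all genes tested and called under 0.05. The 2 tables carry separate normalizations, so tests of a mutant stayed within its own table, and the difference of the effects in 1 fit over 12 libraries. Ratios used exact permutation tests (scipy 1.17.1). The fit was tested on simulated data. Alternatives were another pseudocount and filter, centring, rescaling, plain variances, a replicate block, and leaving out each library. Members and lists were chosen with earlier results of these data known. Every chain reaching 1 FPKM in a group mean is named with values. Of the pathway lists the 2 called members with the largest rise and the 2 with the largest fall in KO, and up to 4 called in NS-DADm, are named. Serpinh1, Fkbp10 and Pxdn in KO, and Mmp9 in KO, were added after their values were seen. Positions come from GENCODE M21 and promoters from RefSeq (GRCm38.p6).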

Additional observations from a re-analysis of the deposited data

Results flagged for a closer look

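For 19 of the 22 chains tested, the KO effect and the NS-DADm effect differed by a test of the difference itself. This was limma over 12 libraries with adjustment over all genes. Among the 11662 genes of this fit, 28.2% were called higher, 17.7% lower and 45.9% in either direction. The larger differences, on the log2(FPKM + 1) scale, were 2.70 for Col8a1, 2.18 for Col3a1, 2.10 for Col5a2, 2.06 for Col1a2, 2.05 for Col1a1 and 1.82 for Col8a2. They were 1.36 for Col6a2, 1.29 for Col16a1, 1.27 for Col6a1, 1.22 for Col15a1, 1.10 for Col4a5, 1.08 for Col4a6 and 1.07 for Col6a3. The smaller ones were 0.96 for Col5a1, 0.88 for Col4a1, 0.67 for Col5a3, 0.67 for Col4a2, 0.47 for Col14a1 and 0.43 for Col27a1. In every one of the 19 the KO effect was the higher one. For Col8a2 and Col4a6 that direction was set by the filter, which they passed only through the KO libraries. Groups of 3 are too small for a test of single libraries that stand apart.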

How the results depend on the processing

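Under every other scaling, filter, pseudocount, variance model and left-out library run, the count of chains called higher in KO was within 1.5 times of 20 (18 to 20 when 1 library was left out), the NS-DADm count was 0, and the difference was called higher for 16 to 20 chains when 1 library was left out. With atrial markers as a covariate, added after seeing the data, the KO count fell to 0, and 2 of all 11810 genes were called: the markers separate KO from WT, so covariate and genotype cannot be told apart there. The KO count of lower chains was 1 without a filter and 1 after rescaling all libraries to the same FPKM total, against 0. That rescaling gave KO over WT ratios of the summed levels of 3.29 for all chains, 4.98 for fibrillar, 2.17 for basement membrane, 2.67 for type VI, 8.66 for network and 2.63 for FACIT chains. The median of all genes in KO was 0.06, -0.03 after centring and 0.14 after rescaling. Centring moved Col4a4 in KO to -0.047 and Col6a6 in the difference to -0.061. In NS-DADm the atrial covariate moved Col18a1 to -0.038 and Col5a2 to -0.001. Leaving out 1 library gave NS-DADm values of -0.01 to 0.31 for Col3a1, -0.093 to 0.051 for Col4a5, -0.027 to 0.084 for Col5a2, -0.222 to 0.191 for Col5a3, -0.124 to 0.046 for Col6a2 and -0.027 to 0.151 for Col8a1, and differences of -0.002 to 0.091 for Col6a6. The call of Col14a1 in the difference was lost without a filter (adjusted p = 0.0520), under centring (0.0712) and in 8 of 12 fits without 1 library. That of Col27a1 was lost under centring (0.0551), and Col18a1 was called with the replicate block (0.0225), with the atrial covariate (0.0121) and without WT replicate 2 of the NS-DADm experiment (0.0345). Deviations of same-numbered libraries correlated at -0.056 to 0.002 in the KO experiment and at 0.006, 0.376 and 0.435 in the other, not above 0.1 in every pair, so the numbers were not taken to pair them. With the replicate block the counts were 20 in KO, 0 in NS-DADm and 20 in the difference. Depth limits the chains under 1 FPKM, such as Col8a2 with about 7 to 11 fragments a library outside KO.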
